A study of Solanum lycopersicum var. cerasiforme with 6 samples.

Results

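The cuticle, wax and surface lipid genes of cherry tomato fruit were taken from the table of all loci by their annotation. An entry belonged to the set when it listed a single gene and its annotation, in any case, held ketoacyl-CoA synthase, fatty acid hydroxylase, lipid transfer or lipid-transfer, GDSL, eceriferum, HOTHEAD, glycerol-3-phosphate acyltransferase or protodermal factor. This gave 159 entries of 146 genes, out of 24556 single-gene entries of 21168 genes. The GDSL lipases/acylhydrolases formed the largest family with 61 entries, followed by the lipid transfer family with 54, the 3-ketoacyl-CoA synthases (KCS) with 19, the fatty acid hydroxylases with 10, the protodermal factors with 8 and the glycerol-3-phosphate acyltransferases (GPAT) with 7. No annotation held eceriferum or HOTHEAD, so 0 entries entered by those words, and 3 of the lipid transfer entries were glycolipid transfer proteins that matched through the shared letters.

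RNA-seq was carried out on pericarp of Solanum lycopersicum var. cerasiforme fruits. Fruits at the mature green stage were injected with 25 μL of ABA (abscisic acid, 10 mM), with 25 μL of NDGA (1 mM nordihydroguaiaretic acid, which blocks the formation of ABA) or with 25 μL of distilled water as the control (CK). Pericarp was taken at day 9, and 2 libraries, from separate harvests, were made in each of the ABA, NDGA and CK groups. Each library pooled RNA of 10 fruits, so differences between single fruits cannot be seen, and seeds and sepals had been discarded before sampling. The question addressed by the comparisons is how transcript levels differ around the onset of ripening between fruits given ABA, NDGA or water. The study reports faster ripening and more ethylene with ABA, and delayed ripening and less ethylene with NDGA. At day 9 the groups thus differed in ripening progress as well as in the treatment given. Effects of ABA level and of ripening stage cannot be told apart here.

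All values are FPKM (fragments scaled to exon length and to the mapped fragments of a library), which the authors averaged over the 2 libraries of a group before deposit. With 1 value per locus and group, these averages allow no SD, test or p-value, and do not show whether a difference exceeds the replicate spread. The number of fragments behind an FPKM is unknown, so low values are of unknown precision. An entry was counted as higher or lower when the ratio of 2 group averages was at least 2-fold (an absolute log2 ratio of at least 1, no pseudocount), both averages were above 0 and the mean over the 3 groups was at least 1 FPKM. Of the 159 entries, 81 had a mean of at least 1 FPKM and values above 0 in all groups, 8 reached that mean but were listed at 0 in a group, and 70 stayed under it. The ripening regulator LeMADS-RIN, in a locus shared with another gene, was at 1203 FPKM in ABA, 397 in NDGA and 672 in CK.

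Some listed values are doubtful. Of the members, 13 genes were listed in 2 entries (26 entries) with the same position and different values, and 51 entries were at exactly 0 in at least 1 group. In 5 entries a 0 stood beside at least 10 FPKM. The KCS2-type gene Solyc03g005320.2 was listed at 638572 FPKM in ABA and at 0 in NDGA and CK. The fatty acid hydroxylase Solyc01g088420.2 was listed at 170466 FPKM in NDGA and at 0 in ABA and CK. The lipid transfer gene Solyc06g073660.2 was listed at 11530 FPKM in NDGA and at 0 in ABA and CK. All 3 genes have another entry with far lower values, and the highest value of a member outside the 5 entries was 5148 FPKM. No ratio was formed with a group at 0, and these 3 entries are not used further.

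The cuticle is the lipid layer that covers the fruit epidermis. Its polymer, cutin, is built from hydroxylated fatty acids that are loaded onto glycerol by acyltransferases and joined outside the cell, where some GDSL proteins act, and its waxes come from very long chain fatty acids that the elongase complex makes, with a KCS at its first step. Alkanes are then formed by enzymes that in Arabidopsis include members of the fatty acid hydroxylase superfamily, and lipid transfer proteins can bind lipids in the cell wall space. In tomato the fruit cuticle limits water loss and cracking. Gene names below are those of the Arabidopsis-type annotation in the files, and roles are given as known in Arabidopsis unless stated.

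In ABA-treated fruits, 30 of 82 members with a ratio were at least 2-fold lower than in CK and 8 were at least 2-fold higher. That is 36.6% lower and 9.76% higher, while over all single-gene entries 10.1% were lower and 4.72% were higher. The median log2 ratio of the members was −0.53, beside 0.02 over all entries. In NDGA-treated fruits the counts leaned the other way: 29 of 85 members were at least 2-fold higher than in CK and 9 were at least 2-fold lower. That is 34.1% higher and 10.6% lower, beside 7.41% and 3.11% over all single-gene entries, with a median log2 ratio of 0.42 beside 0.03. Both comparisons share the CK average, so they are not independent of each other, and 1 of the 9 lower entries, Solyc12g011010.1, is doubtful. Directly between the treatments, 47 of 81 members were at least 2-fold lower in ABA than in NDGA and 10 were at least 2-fold higher (58.0% and 12.3%, beside 16.3% and 6.98% over all single-gene entries). Without the lipid transfer family, 18 of 54 were lower and 2 higher in ABA against CK (33.3% and 3.7%). In NDGA against CK, 14 of 57 were then higher and 9 lower (24.6% and 15.8%). The median log2 ratio for NDGA was then 0.063, close to the 0.03 over all single-gene entries.

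**Figure D1:**
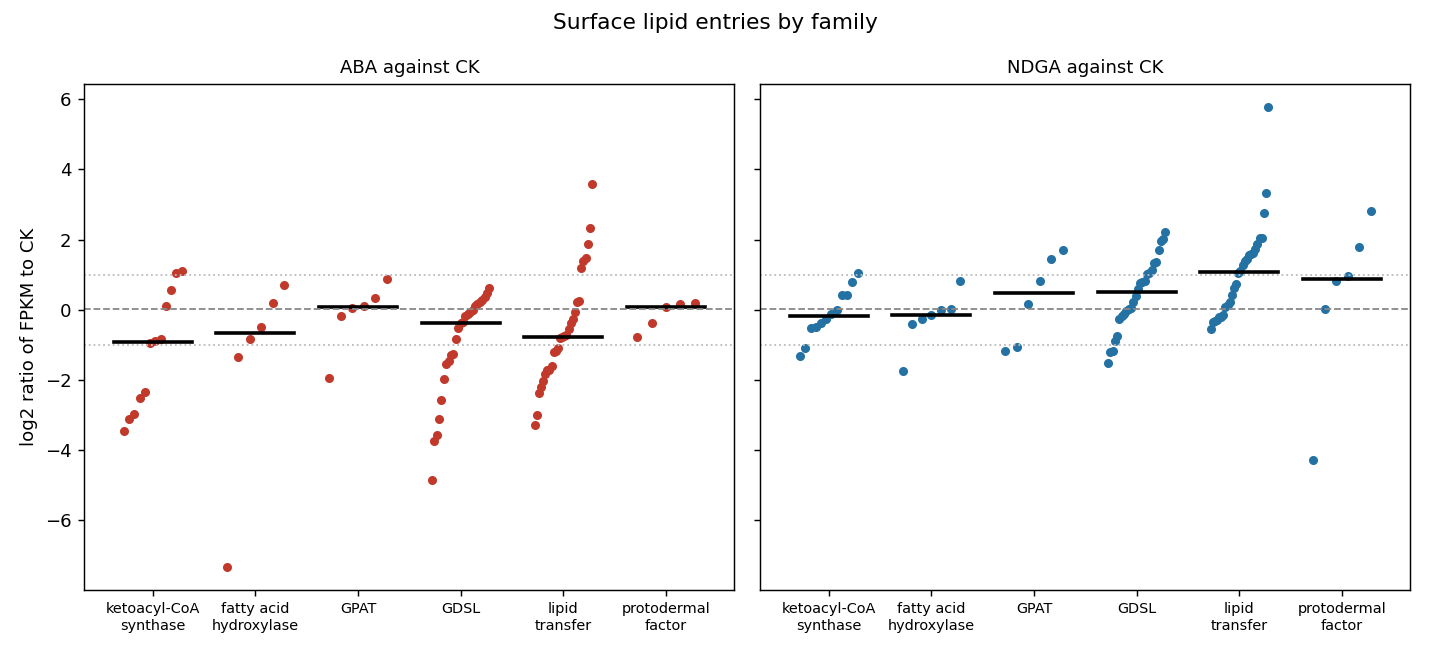
Each point is an entry with a mean of at least 1 FPKM, placed by its log2 ratio of FPKM to CK on the vertical axis and sorted by ratio within its family. The left panel holds ABA and the right panel NDGA, thick bars are family medians, the dashed line is the median of all single-gene entries and dotted lines mark 2-fold. The KCS median was −0.92 in ABA, and the lipid transfer median was −0.77 in ABA and 1.09 in NDGA.

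The KCS family, the condensing enzymes of wax chain elongation, held an abundant gene that was over 10-fold lower in ABA than in CK. Solyc02g085870.2 (3-ketoacyl-CoA synthase 6, chromosome 2, 43228976 to 43231217 on SL2.40) was at 25.9 FPKM in ABA and 198.7 in NDGA, against 282 in CK. ABA was therefore 10.9-fold lower than CK and NDGA 1.42-fold lower. KCS6 elongates acyl chains for stem and pollen wax in Arabidopsis. The second most abundant KCS gene, Solyc08g067260.2, carries the name of KCS10, which in Arabidopsis keeps epidermal surfaces from fusing. It was at 83.6 FPKM in ABA and 119.9 in NDGA, against 155 in CK, a difference of less than 2-fold in both comparisons.

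Of 12 KCS entries with a ratio, 5 were at least 2-fold lower in ABA than in CK and 2 were higher. That is 41.7% and 16.7%, beside 10.1% and 4.72% over all single-gene entries. The KCS3-type Solyc11g072990.1 was at 6.27 FPKM in ABA and 30.4 in NDGA, against 36.1 in CK. The KCS11-type Solyc05g013220.2 was at 1.91 in ABA and 13.7 in NDGA, against 14.9 in CK. A further KCS11-type gene, Solyc09g083050.2, was at 0.58 in ABA and 8.63 in NDGA, against 4.98 in CK. In these genes the ABA value stood apart and the NDGA and CK values lay within 2-fold of each other. KCS1, which acts in wax formation, named the fifth lower gene, Solyc10g009240.2, at 0.58 FPKM in ABA and 3.92 in NDGA, against 2.93 in CK. The 2 higher entries were low in all groups. Solyc03g005320.2, whose annotation names KCS2, known from root suberin, was in its second entry at 4.13 in ABA and 0.80 in NDGA, against 2.00 in CK. Another KCS6-type gene, Solyc05g009270.2, was at 2.87 in ABA and 0.62 in NDGA, against 1.33 in CK. ABA was thus above CK in this gene and below CK in its abundant namesake, while NDGA was below CK in both.

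For NDGA, 1 of 12 KCS entries was at least 2-fold higher than CK and 2 were lower. That is 8.33% and 16.7%, beside 7.41% and 3.11% over all single-gene entries. The higher one was an entry of the KCS4-type Solyc04g080450.1, at 5.79 FPKM in ABA and 8.07 in NDGA, against 3.90 in CK. The other entry of the same gene was at 8.40 in ABA and 20.3 in NDGA, against 15.1 in CK. The entries thus disagree on the direction of ABA against CK, and the gene's own level is uncertain.

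The largest ratio among the counted members lay in the fatty acid hydroxylase superfamily, which holds enzymes of alkane and sterol formation. Solyc03g117800.2 (chromosome 3, 60883128 to 60887346) was at 0.70 FPKM in ABA and 102 in NDGA, against 112 in CK. Its log2 ratio to CK was −7.32 for ABA and −0.14 for NDGA. This transcript was under 1 FPKM in ABA fruits, while NDGA was 1.10-fold lower than CK. The most abundant hydroxylase, Solyc01g088400.2 (chromosome 1, 74964022 to 74968482), had another order. It was at 1692 FPKM in ABA and 305 in NDGA, against 1029.7 in CK, which put NDGA 3.38-fold lower than CK and ABA 1.64-fold higher.

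Further hydroxylases differed less. Solyc03g065250.2 was at 231 FPKM in ABA and 271 in NDGA, against 322 in CK. Solyc02g070050.2, annotated as fatty acid hydroxylase 1, which acts on sphingolipids, was at 40.8 in ABA and 36.2 in NDGA, against 35.3 in CK. Solyc07g006300.2 was at 6.87 in ABA and 13.3 in NDGA, against 17.6 in CK, and made the second of 2 hydroxylase entries of 6 that were at least 2-fold lower with ABA. None of the 6 was at least 2-fold higher with ABA, and of 7 entries with an NDGA ratio 0 were higher and 1 was lower. For ABA that is 33.3% lower and 0.0% higher, beside 10.1% and 4.72% over all single-gene entries. For NDGA it is 0.0% higher and 14.3% lower, beside 7.41% and 3.11%.

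**Figure D2:**
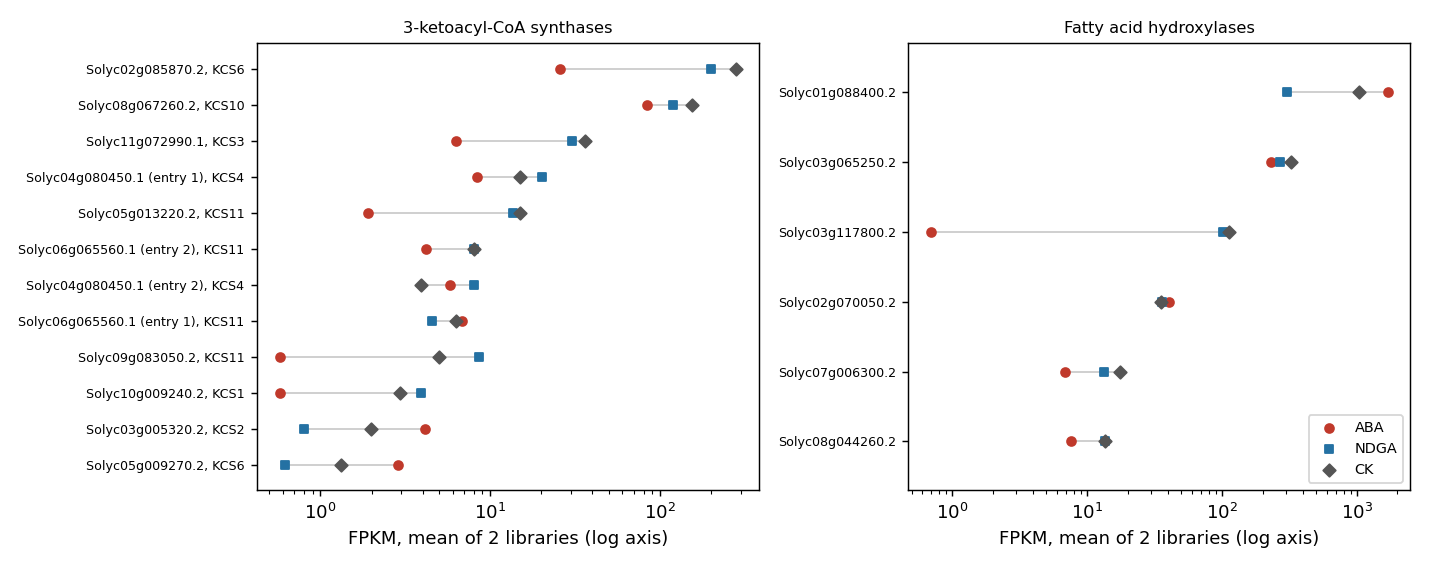
FPKM on a log axis for the KCS entries (left) and the fatty acid hydroxylase entries (right) with a mean of at least 1 FPKM and values above 0 in all groups. Circles are ABA, squares NDGA and diamonds CK, each the authors' mean of 2 libraries, and a grey line spans the 3 values. Solyc02g085870.2 and Solyc03g117800.2 have ABA values far left of NDGA and CK, at 25.9 and 0.70 FPKM.

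The protodermal factors mark the outermost cell layer in Arabidopsis: PDF1 is a cell wall protein of that layer, and PDF2 is a homeodomain transcription factor that maintains it. Of 5 protodermal factor entries with an ABA ratio, 0 were at least 2-fold higher or lower than CK, and their median log2 ratio was 0.08. Most entries also lay within 2-fold, as 4.72% of all single-gene entries were higher and 10.1% lower. The most abundant with values in all groups, the PDF2-type Solyc10g005330.2, was at 11.5 FPKM in ABA and 15.2 in NDGA, against 14.8 in CK. The PDF1-type Solyc10g007800.2 was at 6.65 in ABA and 20.2 in NDGA, against 5.88 in CK, so NDGA was 3.44-fold higher. A second PDF1-type gene, Solyc12g011010.1, had a doubtful entry at 0 in ABA and 2446 in NDGA, against 47507 in CK, and another entry at 0.67 in ABA and 8.20 in NDGA, against 1.16 in CK, which puts NDGA on opposite sides of CK. Homeodomain entries outside the keywords, given below, included some that were at least 2-fold lower in ABA than in CK. These values stand beside the lower KCS and hydroxylase transcripts in ABA, and their part in that result was not tested. In bulk pericarp, fewer epidermal cells and less RNA per epidermal cell cannot be told apart.

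GPAT enzymes attach acyl groups to glycerol, and the types differ in what they build. The GPAT9-type Solyc08g082340.2, of membrane and storage lipid synthesis, was the most abundant and was nearly level, at 36.5 FPKM in ABA and 39.6 in NDGA, against 35.4 in CK. The cutin-type genes did not share 1 order of groups. The GPAT4-type Solyc01g094700.2 was at 2.49 in ABA and 16.9 in NDGA, against 9.56 in CK, which put ABA 3.84-fold lower. The GPAT6-type Solyc02g087500.1 was at 8.08 in ABA and 2.13 in NDGA, against 4.43 in CK, with NDGA 2.08-fold lower. A second GPAT6-type gene, Solyc09g014350.2, was at 1.97 in ABA and 0.81 in NDGA, against 1.81 in CK. Both GPAT6-type genes were thus lowest with NDGA, whereas the GPAT4-type gene was lowest with ABA. The GPAT5-type Solyc05g053030.1, named for a suberin enzyme, was at 1.18 in ABA and 3.04 in NDGA, against 0.94 in CK. The GPAT1-type Solyc07g056320.2 was at 1.59 in ABA and 4.95 in NDGA, against 1.80 in CK. In all, 0 of 6 GPAT entries were at least 2-fold higher and 1 was lower in ABA against CK, and 2 were higher and 2 lower in NDGA against CK. Over all single-gene entries 4.72% were higher and 10.1% lower in ABA, and 7.41% higher and 3.11% lower in NDGA. With 6 entries, 1 gene makes 16.7%, so these counts carry little weight.

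The GDSL family includes the extracellular enzyme that joins cutin monomers in tomato fruit, but the annotation does not say which entry that is. Of the 61 GDSL entries, 35 had a mean under 1 FPKM and were not counted. The counts below therefore need not include that enzyme. In ABA, 10 of 25 GDSL entries with a ratio were at least 2-fold lower than CK and 0 were higher, with a median log2 ratio of −0.36. In NDGA, 9 of 26 were higher and 3 lower, with a median of 0.50. The shares in ABA were 40.0% lower and 0.0% higher, beside 10.1% and 4.72% over all single-gene entries. For NDGA they were 34.6% higher and 11.5% lower, beside 7.41% and 3.11%. Solyc07g049440.2 (chromosome 7, 57033055 to 57036399) was the most abundant of those lower in ABA, at 16.5 FPKM in ABA and 131 in NDGA, against 220.2 in CK, a 13.4-fold difference for ABA. The 3 most abundant entries, from 2 genes, did not differ 2-fold between ABA and CK. Solyc03g111550.2 was at 415 in ABA and 230.3 in NDGA, against 526 in CK, in 1 entry, and at 253 in ABA and 126 in NDGA, against 285 in CK, in the other. Its entries agree that NDGA was about 2-fold lower, at log2 ratios of −1.19 and −1.18. Solyc01g099040.2 was at 451 in ABA and 209 in NDGA, against 384 in CK.

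Solyc01g099040.2 lies in the largest run of neighbouring members, 5 GDSL genes on chromosome 1 with gaps of at most 20 kb, whose levels differ widely. Solyc01g099020.2 was at 0.42 FPKM in ABA and 4.19 in NDGA, against 12.1 in CK, a 28.6-fold difference for ABA. Solyc01g099050.2 was at 0.82 in ABA and 12.3 in NDGA, against 7.15 in CK, in 1 entry, and at 0.38 in ABA and 0.14 in NDGA, against 0.33 in CK, in the other. The entries disagree on the side of CK in both comparisons, so the level of this gene is uncertain. Solyc01g099030.2 and Solyc01g099060.1 had means of 0.34 and 0.043 FPKM and were not counted. Among all members, 46 genes lay in 19 such runs of 1 family, 9 of them GDSL, 7 lipid transfer, 2 KCS and 1 fatty acid hydroxylase. Reads of near-identical neighbours could be split between them by the counting, which was not tested.

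The GDSL entries that were at least 2-fold higher in NDGA were at 41.9 FPKM or less in all groups. Solyc06g065530.2 was at 19.6 FPKM in ABA and 41.9 in NDGA, against 16.2 in CK. Solyc05g050210.2 was at 13.5 in ABA and 28.4 in NDGA, against 13.7 in CK. Both had ABA values close to CK. Solyc11g043110.1 was at 4.07 in ABA and 24.3 in NDGA, against 9.74 in CK, and Solyc04g050570.2 was at 2.98 in ABA and 17.7 in NDGA, against 8.15 in CK. In these the ABA and NDGA values lay on opposite sides of CK, each by at least 2-fold. Solyc04g081770.2 was listed at 0 in ABA and at 11.9 in NDGA, against 5.87 in CK, and so has no ratio for ABA. Its neighbour Solyc04g081760.2 was at 1.76 in ABA and 7.13 in NDGA, against 6.83 in CK, and at 0.28 in ABA and 1.04 in NDGA, against 1.26 in CK, in its other entry. Solyc10g085740.1, also higher in NDGA, has a locus of 557590 bp, far wider than a gene, and Solyc02g071640.1 and Solyc02g071680.1 are listed at 1 position, so their values are uncertain.

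**Figure D3:**
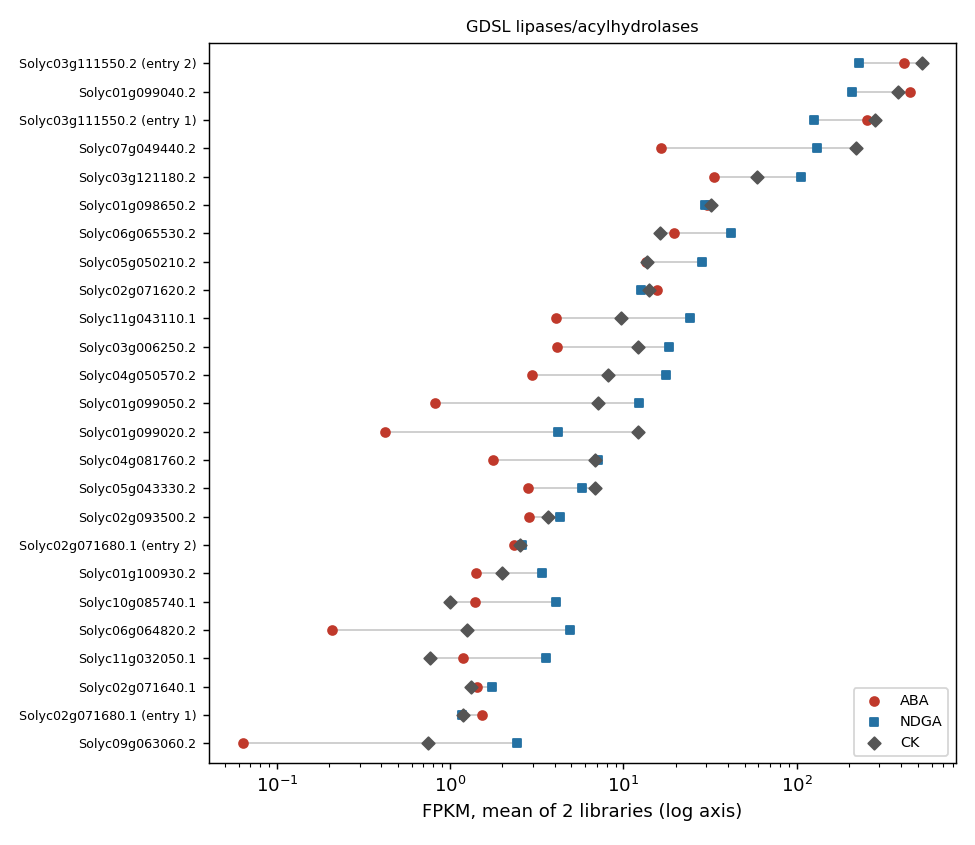
FPKM on a log axis for the 25 GDSL entries with a mean of at least 1 FPKM and values above 0 in all groups, most abundant at the top. Circles are ABA, squares NDGA and diamonds CK, each the authors' mean of 2 libraries, and a grey line spans the 3 values. Solyc07g049440.2 and Solyc01g099020.2 show ABA at 16.5 and 0.42 FPKM, left of NDGA and CK.

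The lipid transfer family had the most members higher in NDGA, and its most abundant genes were among the most abundant of the set. Of 28 entries with a ratio, 15 were at least 2-fold higher in NDGA than in CK and 0 were lower, and in ABA 6 were higher and 12 lower. For NDGA that is 53.6% and 0.0%, beside 7.41% and 3.11% over all single-gene entries. For ABA it is 21.4% and 42.9%, beside 4.72% and 10.1%. Solyc01g090360.2 (chromosome 1, 75821026 to 75821828) was at 1273 FPKM in ABA and 5148 in NDGA, against 1665 in CK. Its neighbour Solyc01g090350.2 was at 323 in ABA and 1416 in NDGA, against 543 in CK. The pair thus had the same order of groups, with NDGA 3.09-fold and 2.61-fold higher. Solyc02g086310.1 was at 642 in ABA and 4793 in NDGA, against 1439.9 in CK, and at 17.5 in ABA and 117 in NDGA, against 40.0 in CK, in its other entry. Solyc08g074480.1 was at 851 in ABA and 3759 in NDGA, against 1807 in CK, and at 89.7 in ABA and 341 in NDGA, against 157 in CK, in its other entry. For both genes the entries differ in level and keep 1 direction, with NDGA above CK and ABA below it. Solyc02g087910.1 was at 14.0 in ABA and 127 in NDGA, against 42.5 in CK.

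All of these carry the annotation of a superfamily that joins lipid transfer proteins with protease inhibitors and the 2S albumins stored in seeds, which covered 47 of the 54 entries, and the files do not tell these types apart. Of 22 such entries with a ratio, 13 were at least 2-fold higher in NDGA than in CK and 0 were lower. That is 59.1% and 0.0%, beside 7.41% and 3.11% over all single-gene entries. Genes typical of seeds were therefore listed from their annotation, after values had been seen: oleosins, which coat oil bodies, and cupin family proteins, which include seed storage proteins. The 17 entries of this list were above 0 in all groups. Their FPKM summed to 2735 in ABA and 9144 in NDGA, against 3996 in CK. Of 16 with a mean of at least 1 FPKM, 13 were at least 2-fold higher in NDGA than in CK and 0 were lower, with a median log2 ratio of 1.32. The NDGA counts are 81.2% and 0.0%, beside 7.41% and 3.11% over all single-gene entries. In ABA, 1 was higher and 2 were lower than in CK. That is 6.25% and 12.5%, near the 4.72% and 10.1% over all single-gene entries. By any amount, 14 of the 16 were below CK in ABA and 2 above, with a median log2 ratio of −0.31 beside 0.02 over all single-gene entries. The cupin Solyc09g082340.2 was at 705 FPKM in ABA and 4061 in NDGA, against 1828 in CK, and the oleosin Solyc12g010920.1 was at 309 in ABA and 956 in NDGA, against 340.1 in CK. Seed-type transcripts were thus higher in NDGA beside the lipid transfer entries, although the study's methods say that seeds were discarded, and their part in the result was not tested.

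**Figure D4:**
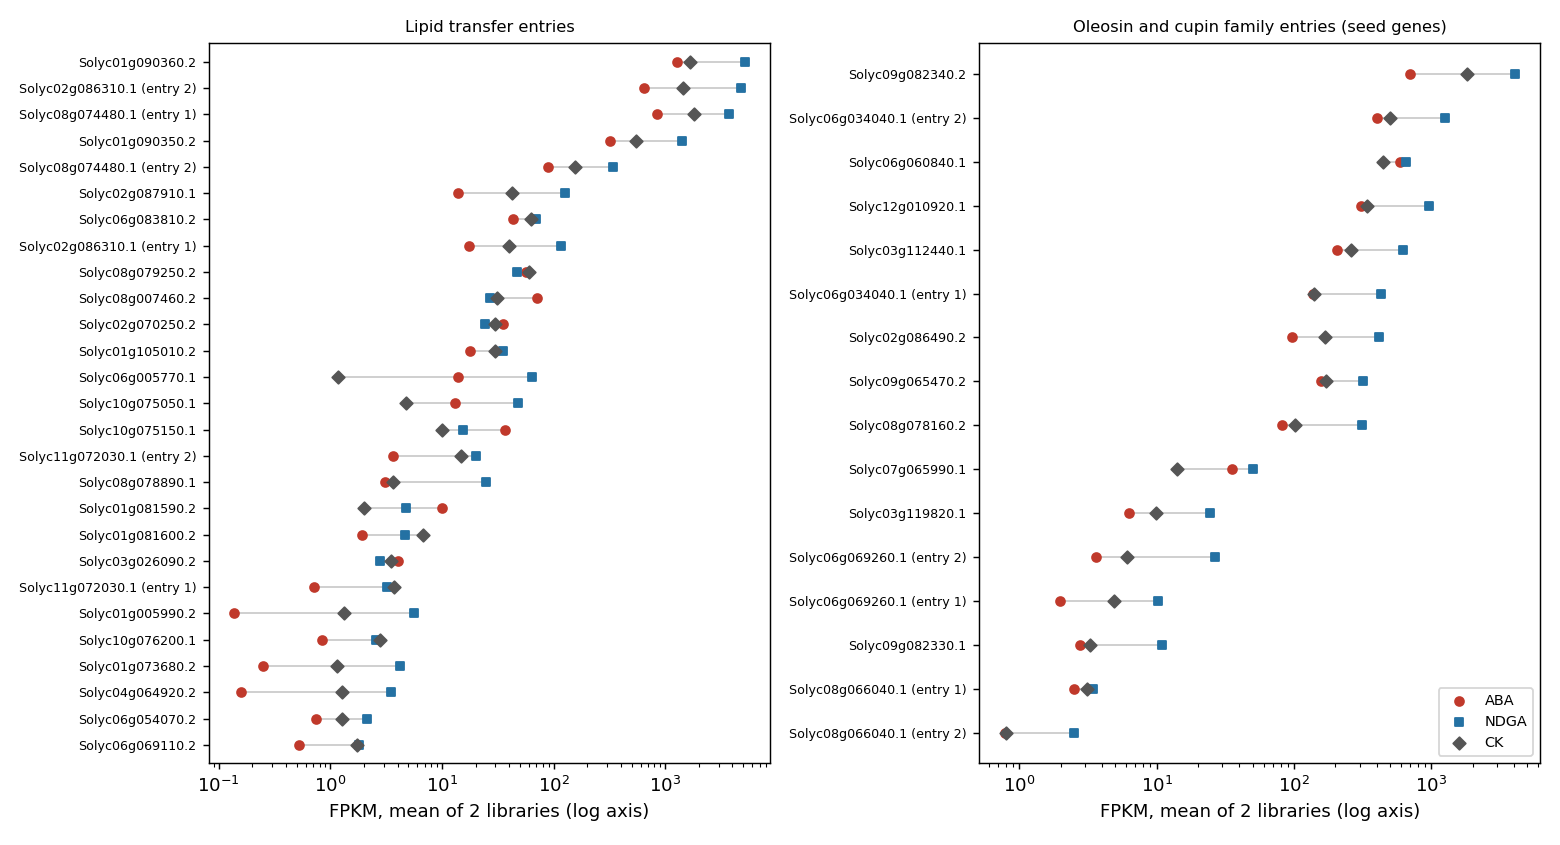
FPKM on a log axis for the lipid transfer entries (left) and for the oleosin and cupin family entries listed as typical of seeds (right), with a mean of at least 1 FPKM and values above 0 in all groups. Circles are ABA, squares NDGA and diamonds CK, each the authors' mean of 2 libraries, and a grey line spans the 3 values. The NDGA squares lie furthest right in the most abundant entries of both panels, such as Solyc01g090360.2 at 5148 FPKM and Solyc09g082340.2 at 4061.

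Several lipid transfer genes were higher with ABA. Solyc06g005770.1 was at 13.9 FPKM in ABA and 64.2 in NDGA, against 1.16 in CK. It had the highest ratio to CK among the counted members for both treatments, at log2 3.58 for ABA and 5.79 for NDGA, and its CK value is near the lower bound of 1 FPKM. LTP12 names a lipid transfer protein of the anther tapetum in Arabidopsis. The LTP12-type Solyc10g075050.1 was at 13.2 in ABA and 47.8 in NDGA, against 4.74 in CK, and the LTP12-type Solyc10g075150.1 was at 36.9 in ABA and 15.4 in NDGA, against 9.95 in CK. In both, ABA was at least 2-fold higher than CK, but the first had its highest value in NDGA and the second in ABA. A further LTP12-type gene, Solyc10g076200.1, was at 0.84 in ABA and 2.55 in NDGA, against 2.80 in CK.

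Solyc08g007460.2 was at 70.9 FPKM in ABA and 27.1 in NDGA, against 31.1 in CK, and was the most abundant lipid transfer entry at least 2-fold higher with ABA. Solyc01g081590.2 was at 10.1 in ABA and 4.80 in NDGA, against 2.00 in CK. Its neighbour Solyc01g081600.2 was at 1.92 in ABA and 4.68 in NDGA, against 6.83 in CK. In this pair the ABA ratios had opposite signs. Solyc08g078890.1 was at 3.07 in ABA and 24.7 in NDGA, against 3.66 in CK, so it was 6.73-fold higher with NDGA and close to CK with ABA. Solyc11g072030.1 was at 3.67 in ABA and 20.0 in NDGA, against 14.9 in CK, in 1 entry, and at 0.72 in ABA and 3.21 in NDGA, against 3.73 in CK, in the other. The 3 glycolipid transfer proteins, which move lipids inside the cell, differed among themselves. Solyc06g083810.2 was at 42.9 in ABA and 69.4 in NDGA, against 63.0 in CK. Solyc02g070250.2 was at 35.3 in ABA and 24.1 in NDGA, against 29.7 in CK. Solyc04g064920.2, of low level, was at 0.16 in ABA and 3.46 in NDGA, against 1.27 in CK, and was the only 1 of the 3 to differ at least 2-fold from CK.

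Other steps of cutin and wax formation, outside the keywords, were listed by annotation: acyl activation, chain hydroxylation, the remaining elongase steps, alcohol and ester formation, export, and proteins with a lipid-binding START domain, most of them homeodomain factors of a class that includes epidermal regulators. Of their 87 entries, 42 had an ABA ratio, of which 2 were at least 2-fold higher and 9 lower than CK, with a median log2 ratio of −0.27. That is 4.76% and 21.4%, beside 4.72% and 10.1% over all single-gene entries. For NDGA, 5 of 41 were higher and 5 lower (12.2% each, beside 7.41% and 3.11%), with a median of 0.17. Between the treatments, 6 of 41 were higher in ABA than in NDGA and 16 were lower (14.6% and 39.0%, beside 6.98% and 16.3%). These counts hold doubtful entries too. The homeodomain entry Solyc09g060140.2, 1 of the 9 lower in ABA, was at 398 FPKM in ABA and listed at 0 in NDGA, against 2649 in CK. Solyc09g060160.1, listed at the same position, was at 241 in ABA and 52.6 in NDGA, against 146 in CK. That entry is 1 of the 5 lower in NDGA than in CK and 1 of the 6 higher in ABA than in NDGA. Solyc09g057540.2, 1 of the 2 higher in ABA and also counted as higher in NDGA, was at 2135 in ABA and 6785 in NDGA, against 858 in CK, in 1 of 2 entries of a locus far wider than a gene. Solyc09g057530.1, listed at that locus too, was at 8.45 in ABA and 4.10 in NDGA, and is another of the 6 higher in ABA than in NDGA. Among other homeodomain entries, Solyc03g120910.2 was at 1.63 in ABA, against 4.69 in CK, and at 0.34 against 1.48 in its other entry. Solyc12g020120.1 was at 0.31 in ABA, against 2.58 in CK, in 1 entry. These were at least 2-fold lower in ABA. Solyc01g091630.2 and Solyc03g120620.2 were within 2-fold of CK, at 23.7 and 10.4 in ABA, against 28.1 and 12.5.

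Single steps differed in their order of groups. The fatty acyl reductases form wax alcohols, and Solyc11g067190.1 was at 0.21 FPKM in ABA and 3.84 in NDGA, against 9.92 in CK. Solyc11g067180.1 was at 0.53 in ABA and 5.78 in NDGA, against 2.57 in CK. Both were at least 2-fold lower in ABA than in CK. Solyc06g074390.2 was at 5.10 in ABA and 2.63 in NDGA, against 3.96 in CK, less than 2-fold from CK in both. The ABC-2 type transporter Solyc04g010200.1, of a family that includes exporters, was at 36.7 in ABA and 92.9 in NDGA, against 154 in CK. Another of that family, Solyc01g097430.2, was at 8.84 in ABA and 0.73 in NDGA, against 2.25 in CK, and was the other of the 2 entries at least 2-fold higher in ABA. The transporter family thus held genes at least 2-fold lower and at least 2-fold higher in ABA than in CK. The PTPLA-type Solyc04g014370.2, named for the dehydratase of the elongase complex, was at 8.29 in ABA and 21.0 in NDGA, against 18.7 in CK, which put ABA at least 2-fold lower. The ketoacyl reductase of the same complex, Solyc02g093640.2, was at 75.3 in ABA and 85.4 in NDGA, against 102 in CK, and differed by less than 2-fold. Of the white-brown complex homolog 11 genes, named for the exporter of cutin and wax lipids, Solyc00g164680.1 was at 21.4 in ABA and 21.9 in NDGA, against 21.2 in CK. Solyc03g019760.2 was at 15.5 in ABA and 24.8 in NDGA, against 23.6 in CK. The less abundant Solyc01g105400.2 was at 2.38 in ABA and 0.98 in NDGA, against 2.20 in CK, at least 2-fold lower in NDGA. Solyc01g109180.2 (long-chain acyl-CoA synthetase 2, which activates cutin precursors) was at 84.2 in ABA and 36.0 in NDGA, against 50.3 in CK. The CYP86A8-type hydroxylase Solyc08g081220.1 was at 3.31 in ABA and 9.99 in NDGA, against 4.45 in CK.

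**Figure D5:**
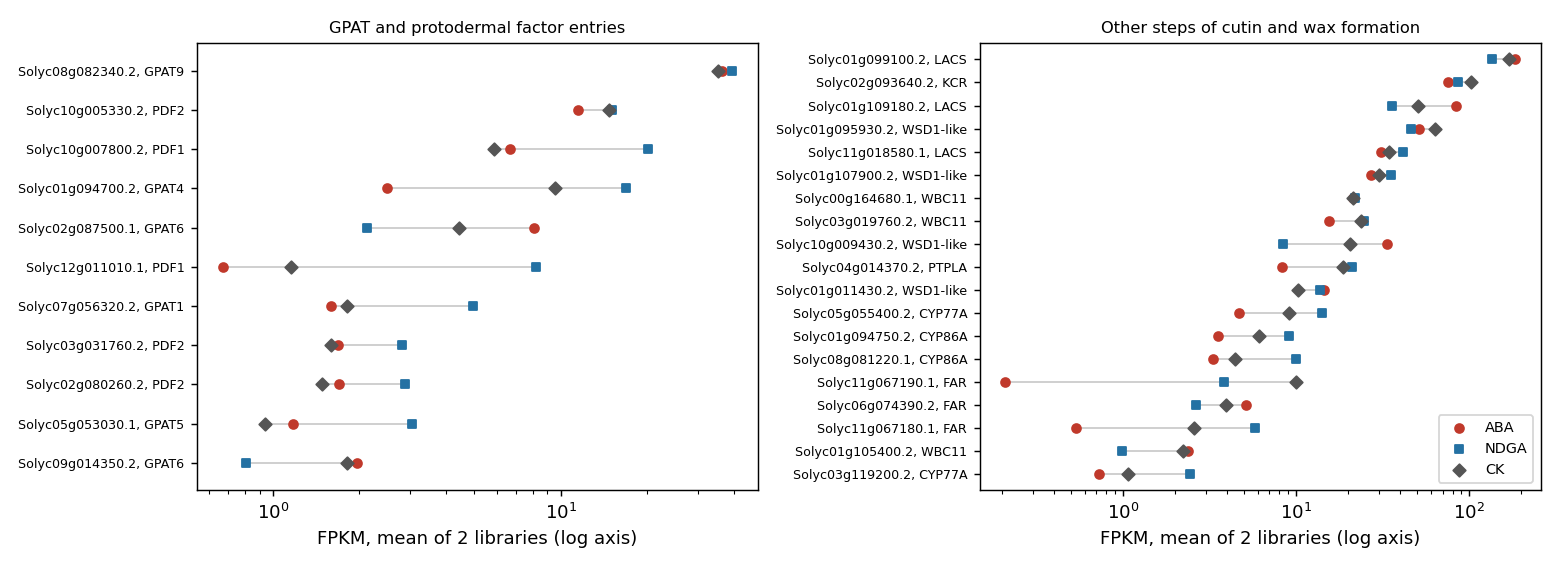
FPKM on a log axis for GPAT and protodermal factor entries (left) and for other cutin and wax steps (right; LACS, long-chain acyl-CoA synthetase; KCR, ketoacyl reductase; FAR, acyl CoA reductase; WBC11, white-brown complex homolog 11). Entries have a mean of at least 1 FPKM and values above 0 in all groups, circles are ABA, squares NDGA and diamonds CK, each the authors' mean of 2 libraries. The GPAT4-type gene is lowest in ABA at 2.49 FPKM, and the GPAT6-type Solyc02g087500.1 is lowest in NDGA at 2.13.

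Set directly against NDGA, ABA was at least 2-fold lower in 6 of 12 KCS entries, 16 of 25 GDSL entries, 19 of 27 lipid transfer entries, 3 of 6 GPAT entries, 2 of 5 protodermal factor entries and 1 of 6 fatty acid hydroxylase entries. It was at least 2-fold higher in 2 KCS, 2 GDSL, 3 lipid transfer, 2 GPAT, 1 fatty acid hydroxylase and 0 protodermal factor entries. Over all single-gene entries 16.3% were lower and 6.98% higher. The lower shares were 50.0% for KCS, 64.0% for GDSL and 70.4% for lipid transfer. For the fatty acid hydroxylases it was 16.7%, near that of all entries, and the GPAT and protodermal factor sets are small. Among the higher ones, the fatty acid hydroxylase Solyc01g088400.2 was at 1692 FPKM in ABA, against 305 in NDGA, a 5.55-fold difference. Among the lower ones, Solyc02g086310.1 of the lipid transfer family was at 642 in ABA, against 4793 in NDGA, a 7.46-fold difference.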

How the data were processed

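The deposited table holds FPKM per locus. The authors aligned clean reads to the tomato genome SL2.40 (ITAG2.3), computed FPKM with Cufflinks and averaged the 2 libraries of each group; the submitters' processing notes name TopHat2 2.0.9, Cufflinks 2.1.1 and Cuffdiff. Depth per library was not used, and averaging hides the replicate spread. The authors' 4 smaller tables, which give their own calls, were not used.

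Members were taken by keyword, and each went to the first family its annotation matched. Ratios of group averages were formed without a pseudocount, and no test was possible. Named genes were the 3 most abundant of each family, the 8 largest ratios in each direction and comparison with a mean of at least 5 FPKM, and members at 0 beside at least 10 FPKM (36 entries). Other genes named were chosen after their values were seen. Members and lists were chosen with earlier results of these data known. The RefSeq table matched 0 member genes, so no sequence is shown. Python 3.11.15, numpy 2.4.6, pandas 2.3.3 and matplotlib 3.10.9 were used, and the counting was tested on simulated data.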

Additional observations from a re-analysis of the deposited data

How the results depend on the processing

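No paired analysis was possible because the columns are group averages that carry no replicate numbers, and for the same reason no replicate could be left out. No direction reversed. Counts were taken as moved past 1.5 times, and log2 values past 0.25. The number of entries compared also changed with some settings, so a moved count alone does not show a moved share. Shares over all single-gene entries were not computed at these settings. With no filter on low values, members higher in ABA than CK numbered 20 of 114 instead of 8 of 82. Those lower in NDGA than CK numbered 14 of 116 instead of 9 of 85. Those higher in ABA than NDGA numbered 20 of 114 instead of 10 of 81. Changed genes of the other cutin and wax steps then numbered 21 of 72 instead of 11 of 42 in ABA against CK. They numbered 23 of 70 instead of 10 of 41 in NDGA against CK, and 41 of 70 instead of 22 of 41 in ABA against NDGA. With a mean of at least 5 FPKM, 5 of 52 members were higher and 19 lower in ABA against CK. In NDGA against CK, 18 of 54 were higher and 5 lower (median log2 ratio 0.15). In ABA against NDGA, 6 of 52 were higher and 29 lower. The main counts beside 19, 18 and 29 were 30 of 82, 29 of 85 and 47 of 81. At a log2 threshold of 1.5, 3 were higher in ABA than CK, 17 higher and 3 lower in NDGA than CK, and 4 higher in ABA than NDGA. Without the lipid transfer entries, 2 of 54 were higher and 18 lower in ABA than CK. In NDGA, 14 of 57 were higher than CK (median 0.063), and 28 of 54 were lower in ABA than NDGA (median −1.05). Without the GDSL entries the last count was 31 of 56. With only genes listed in 1 entry, 5 of 64 were lower in NDGA than CK. With a pseudocount of 1, the median of ABA against NDGA was −1.05. Entries above 0 in all groups, a choice made after the data were seen, gave no moved value. Of 128 ratios of named genes under these settings, 12 moved, all with the pseudocount of 1, and 0 reversed. Low FPKM limit all of these counts.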

Other observations

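Entries that merge several genes were outside the set, and 6 of them held 1 of the keywords. The GDSL lipase 1 locus of Solyc04g024830.1 and Solyc04g024840.2 (chromosome 4, 14865381 to 14868513) was at 0.90 FPKM in ABA and 278 in NDGA, against 412 in CK, with log2 ratios to CK of −8.83 for ABA and −0.57 for NDGA. That ABA ratio was larger in size than that of any counted member. The lipid transfer protein 1 locus, which spans 4 genes from Solyc10g075070.1 to Solyc10g075110.1, was at 1817 FPKM in ABA and 2953 in NDGA, against 2949.6 in CK, so NDGA and CK were level there, unlike in the abundant lipid transfer members. The GDSL locus of Solyc01g099080.2 and Solyc01g099090.2 was at 51.7 in ABA and 38.9 in NDGA, against 44.3 in CK. A merged value cannot be divided among its genes.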
